A study of Mus musculus with 2 samples.

Results

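The NF-kB subunits, their inhibitors and the activating kinase IKK beta were followed in B cells of the mouse spleen, across 2 wild-type samples with 1 array each. The set comprised 10 genes, 5 for DNA-binding subunits (Nfkb1, Nfkb2, Rel, Rela, Relb), 4 for inhibitors (Nfkbia, Nfkbib, Nfkbie, Tnfaip3) and 1 for the kinase subunit Ikbkb. A probe set, a group of short probes read together as 1 signal, was taken when the platform annotation named exactly 1 of these genes. This gave 16 probe sets of 9 genes, out of 20380 probe sets of 12393 genes that named 1 gene. Nfkb1 was matched by no probe set and was not analysed here. Both samples were cells positive for surface IgM and IgD, sorted by flow cytometry from spleen, with no genetic modification. The series was designed around B cells lacking serum response factor (SRF), whose arrays were not analysed here. Strain, age and sex were not given in the labels, and nothing there ties each sample to a mouse or a sort of its own. Since both belong to 1 group, there is no test and no p-value. Replicates 1 and 2 are names given in accession order.

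NF-kB is a family of dimeric transcription factors that share a Rel homology domain. In the canonical pathway, dimers of p50 (from Nfkb1) with RelA or c-Rel are held in the cytoplasm by IkB proteins until the IKK complex phosphorylates an IkB and so marks it for degradation. In the alternative pathway, the p100 precursor encoded by Nfkb2 is processed to p52, which acts with RelB. In B cells the canonical pathway follows the antigen receptor, Toll-like receptors and CD40, and the alternative pathway follows CD40 and the BAFF receptor, which sustains survival. Several genes of the set are themselves targets of NF-kB, among them Nfkbia and Tnfaip3, and so form negative feedback.

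The promoters of these genes are shown first because such feedback acts through kB sites, the DNA sequences that NF-kB dimers bind. Sequences were those of RefSeq on build GRCm38.p6, which covered 7 of the 10 genes with 10 gene starts. Nfkb1, Relb and Ikbkb were not among them. In the 250 bases before each start, both strands were searched for the 10-base kB consensus, which begins with GGG and ends with CC, and for the CArG box, the SRF binding motif. A kB match was found in 5 of the 7 genes (Nfkb2, Rel, Nfkbia, Nfkbie and Tnfaip3) and in none of the starts of Rela and Nfkbib. Over all promoters, 1204 of 27025 genes held a match, or 4.46%. A CArG box was found in 0 of the 7 genes and in 439 of all genes, or 1.62%. No match says only that these letters were not in this window. The 130 bases before the start are given 5′ to 3′ along the gene's strand, with kB matches in capitals, overlapping matches of both strands merged.
Nfkb2: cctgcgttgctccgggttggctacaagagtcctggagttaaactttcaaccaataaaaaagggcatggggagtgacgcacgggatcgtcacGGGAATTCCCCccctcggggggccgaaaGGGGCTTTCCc
Rel: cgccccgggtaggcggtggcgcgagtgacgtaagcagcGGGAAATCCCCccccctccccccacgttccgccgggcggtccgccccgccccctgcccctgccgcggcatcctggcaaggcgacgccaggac
Nfkbia: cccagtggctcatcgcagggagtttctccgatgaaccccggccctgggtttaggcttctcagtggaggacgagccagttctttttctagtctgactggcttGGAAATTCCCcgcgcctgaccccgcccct
Nfkbie: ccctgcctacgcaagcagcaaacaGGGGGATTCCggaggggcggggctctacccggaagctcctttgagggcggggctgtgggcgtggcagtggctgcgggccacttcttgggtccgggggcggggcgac
Tnfaip3: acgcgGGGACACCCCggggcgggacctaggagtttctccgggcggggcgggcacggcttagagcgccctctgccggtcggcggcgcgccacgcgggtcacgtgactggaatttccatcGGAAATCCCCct

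These stretches lay at chr19:46304607-46304736 (plus strand) for Nfkb2, chr11:23770970-23771099 (minus strand) for Rel, chr12:55492648-55492777 (minus strand) for Nfkbia, chr17:45555570-45555699 (plus strand) for Nfkbie and chr10:19015411-19015540 (minus strand) for Tnfaip3. Each lay directly upstream of a start in the RefSeq promoter table. For Rel, Nfkbia, Nfkbie and Tnfaip3 this start was the 5′ end of the annotated gene, whereas the Nfkb2 stretch lay inside the annotated gene, downstream of its 5′ end, which was not searched here. The stretch of Rel, GGGAAATCCCC, began 92 bases before the start and read as a match on both strands. Nfkb2 held the pair GGGAATTCCCC, which began 39 bases before the first of its 3 starts in that table, and GGGGCTTTCC, which began 11 bases before it. The 2 starts after it each had 1 further match, which began 236 and 225 bases before them. The Nfkbia match, GGAAATTCCC, began 29 bases before the start. Tnfaip3 held GGAAATCCCC, 12 bases before the start, and GGGACACCCC, 125 bases before it, and its downstream start had none. The Nfkbie match, GGGGGATTCC, began 106 bases before the start. Gene coordinates below are those of the same build.

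**Figure D1:**
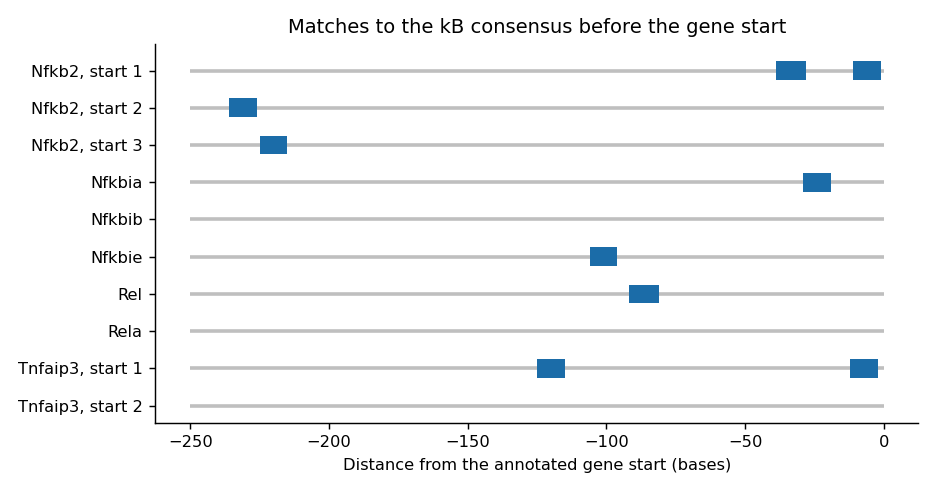
Positions of matches to the kB consensus in the 250 bases before each start of 7 genes in the RefSeq promoter table. The x axis is the distance from the start in bases, each grey line is 1 start and blue bars are matches. Matches stand within 39 bases of a start in Nfkb2, Nfkbia and Tnfaip3, and Rela and Nfkbib have none.

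The values are MAS5 signal intensities on a linear scale, which the authors had scaled to a common mean. An expression floor was set on each array at the 90th percentile of 78 probe sets for 56 genes restricted to organs such as liver, brain or testis. It was 174 on replicate 1 and 83.4 on replicate 2. A probe set was called detected when it exceeded the floor of both arrays, and a gene when any of its probe sets was. Among 16 measured B cell identity genes, 15 were detected, against 30.2% of all 12393 genes. Ighm at 12796 ± 4012 and Cd22 at 4807 ± 699 (SD, n = 2) were the brightest by mean log2 signal. The exception, with 21.5 on replicate 1 and 15.6 on replicate 2, was Pax5, a transcription factor of the B lineage. Markers of 8 other cell types were detected in 6 of 63 cases, or 9.52% (Zap70, Csf1r, Lyz2, Ngp, S100a9 and Gp1bb). The summed signals of the markers per type ran from 435 to 1100.4 on replicate 1 and from 108 to 1096 on replicate 2. The T cell receptor gene Cd3e gave 31.1 and 16.1. Between the arrays the log2 signal had a pooled SD of 0.67, or 1.59-fold, over the 4955 detected probe sets. The arrays also differed in several controls. The 18 probe sets for the hybridization controls, spiked-in bacterial bio and phage cre transcripts, were all higher on replicate 1, by 3.39-fold to 13.2-fold. The ratio of 3′ to 5′ signal, a measure of RNA integrity, was 3.57 on replicate 1 and 8.15 on replicate 2 for Actb. For Gapdh it was 1.31 on replicate 1 and at least 9.88 on replicate 2, whose 5′ signal of 13.5 was below the floor. Xist, transcribed from the inactive X chromosome, gave 740.4 on replicate 1 and 15.3 on replicate 2. Eif2s3y, which is Y-linked, gave 3.4 and 249. Each was thus above the floor of 1 array and far below that of the other, as between a female and a male source. Of 2 further Y-linked genes, Kdm5d gave 88.4 and 175.9, above the floor on replicate 2 only. Uty gave 44.8 and 57.7, below the floor on both. The labels give no sex, so a difference in the sex of the source was not tested. The part of any of these in the differences below was not tested.

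Of the 9 measured genes 6 were detected, namely Nfkb2, Rel, Rela, Relb, Nfkbia and Ikbkb, against 30.2% of all 12393 genes. By probe set it was 11 of 16, against 24.3% of all. On replicate 1 alone 13 of 16 probe sets exceeded the floor, against 30.2% of all, and on replicate 2 alone 13, against 43.9%. Of the other 5 probe sets, 2 were above the floor of replicate 1 only, 2 above that of replicate 2 only, and 1 above neither. All 4 measured DNA-binding subunits were detected, and 1 of the 4 inhibitors was. By the same rule 3 of the 56 genes restricted to other organs were detected, or 5.36%. Of these, Prm1 gave 260 on replicate 1, above Relb and Nfkb2, and 151 on replicate 2, below them. Signals of different probe sets depend on probe affinity and were not compared as amounts of RNA. In sorted bulk samples, fewer expressing cells and less RNA per cell cannot be told apart.

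**Figure D2:**
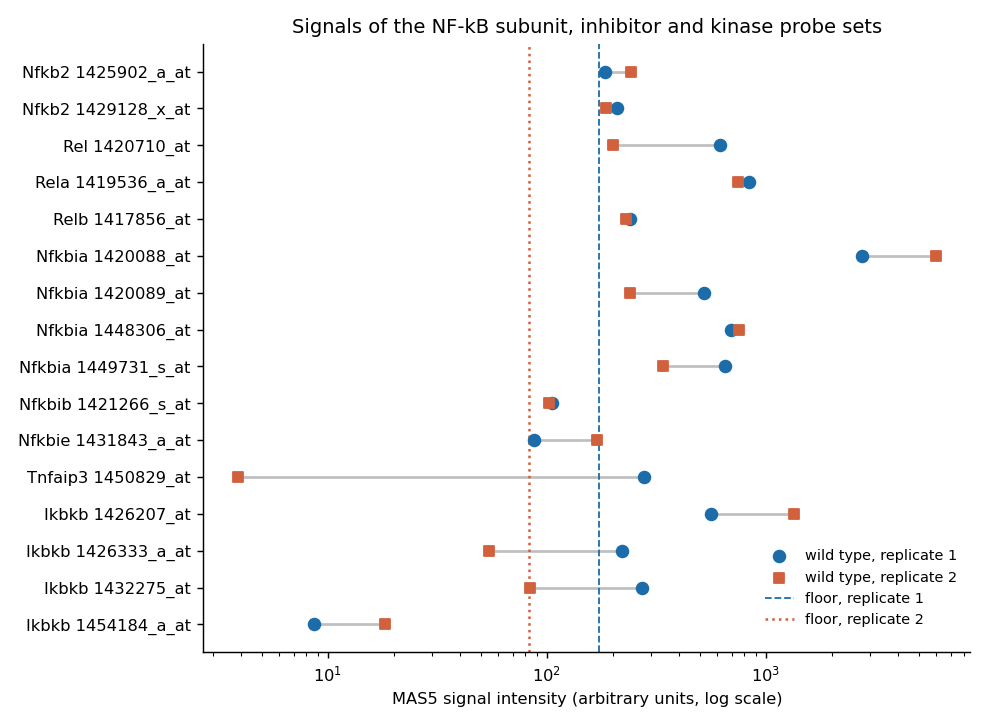
MAS5 signal (x axis, arbitrary units, log scale) of each of the 16 probe sets on replicate 1 (circles) and replicate 2 (squares), with the floor of each array as a vertical line. Nfkbia has the rightmost pair of signals, 2760 and 5965, and Tnfaip3 the widest gap, 277 on replicate 1 against 3.9 on replicate 2.

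Among the DNA-binding subunits, Rela, Relb and Nfkb2 gave like signals on both arrays as deposited and Rel did not. Rela (chr19:5637442-5648134), which encodes RelA or p65, the main transactivating subunit of canonical dimers, had signals of 841 on replicate 1 and 749 on replicate 2. Its mean was 795 ± 65.1 (SD, n = 2), a log2 difference of 0.17, replicate 1 minus replicate 2. Relb (chr7:19606217-19629438), the transactivating partner of p52 in the alternative pathway, gave 240.3 and 230.4, or 235 ± 7.0 (SD, n = 2), a log2 difference of 0.06. For both genes the 2 arrays were less than the pooled SD apart. On replicate 1, Relb was 1.38 times the floor, against 2.76 times on replicate 2.

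Nfkb2 (chr19:46300994-46312400), which encodes p100 and p52, was read by 2 probe sets. The first, 1425902_a_at, gave 185 on replicate 1 and 243 on replicate 2. The second, 1429128_x_at, had signals of 209 and 187. Their log2 differences were -0.39 and 0.16, opposite in sign and each below the pooled SD. On replicate 1 the signals were 1.06 and 1.20 times the floor, so that Nfkb2 was placed above it there by a small margin. At a floor set at the 95th percentile of the same organ genes, 9 of the 16 probe sets were detected, from 6 genes.

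Rel (chr11:23736847-23770969) encodes c-Rel, a subunit found mainly in lymphoid cells and needed for B cell proliferation. It gave 621 on replicate 1 and 201 on replicate 2, or 411 ± 297 (SD, n = 2), both above the floor. Replicate 1 was 3.09-fold higher, a log2 difference of 1.63. Of all detected probe sets, 3.37% lay at least as far in this direction. Most detected genes listed as immediate early, a class induced within minutes of receptor signalling, ran the same way. Of the 25 listed, all measured, 17 were detected, against 30.2% of all genes. Among these 17, replicate 1 was over 2-fold higher for 14 and replicate 2 for 1, against 14.6% and 14.0% of all genes. Their median log2 difference was 2.35, against 0.03 over all genes. After quantile normalization the counts were 15 and 1, against 442 and 328 of 3713 genes. After centring each array on its median they were 10 and 1, against 114 and 1261 of 3687. Among the brightest genes of this list, Klf2, listed there although a factor of quiescence, was 2.54-fold higher on replicate 1, Jund 2.06-fold and Fos 20.0-fold. Their part in the Rel difference was not tested. Rel was read by 1 probe set.

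The inhibitors differed among themselves. Nfkbia (chr12:55489409-55492647), which encodes IkB alpha, the rapidly resynthesised inhibitor of canonical dimers, was detected by all 4 of its probe sets. The brightest, 1420088_at, gave 2760 on replicate 1 and 5965 on replicate 2, or 4362 ± 2266 (SD, n = 2), so replicate 2 was 2.16-fold higher. Another, 1420089_at, gave 525 and 239 and went the other way, 2.20-fold higher on replicate 1. Likewise 1449731_s_at gave 654 and 339, and so was 1.93-fold higher on replicate 1. The remaining one, 1448306_at, the only one that the annotation ties to a RefSeq mRNA, gave 698 and 752, or 725 ± 38.3 (SD, n = 2). The 4 log2 differences were -1.11, 1.13, 0.95 and -0.11, with a mean of 0.22. Nfkbia thus exceeded the floor of both arrays by every probe set, but the array it was higher on depended on the probe set.

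Probe sets of other genes disagreed too. The 4 differences spanned 2.25 on the log2 scale. Among 49 genes with 4 detected probe sets, Nfkbia included, the median span was 1.58 and 14 genes, or 28.6%, spanned at least as much. In 6 of these genes, or 12.2%, probe sets were over 2-fold apart in opposite directions, as in Nfkbia. The positions of the probes along the transcripts were not analysed here.

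The other IkB genes were near the floor. Nfkbib (chr7:28758251-28766644), which encodes IkB beta, an inhibitor that is resynthesised more slowly, gave 106 on replicate 1 and 103 on replicate 2, or 104 ± 2.19 (SD, n = 2). The signals were nearly equal, yet the first was 0.61 times the floor of its array and the second 1.23 times. Nfkbie (chr17:45555700-45563169), which encodes IkB epsilon, an inhibitor of RelA and c-Rel dimers, gave 87.9 and 170.0, or 129 ± 58.1 (SD, n = 2). It was 0.51 times the floor on replicate 1 and 2.04 times on replicate 2, and no fold is given because the replicate 2 signal did not exceed the floor of replicate 1.

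Tnfaip3 (chr10:19000910-19015410) encodes A20, a ubiquitin-editing enzyme that switches off signalling upstream of IKK. It gave 277 on replicate 1, 1.59 times the floor, and 3.9 on replicate 2, far below it. Set against the floor of replicate 2, the difference in deposited signal was at least 3.33-fold. The floors themselves differed, at 174 on replicate 1 and 83.4 on replicate 2, so this minimum is not corrected for background. Tnfaip3 was the one gene of the set above the floor on replicate 1 alone. Replicate 1 thus had the higher deposited Tnfaip3 signal, and the gene was read by 1 probe set. A gene restricted to other organs could give a like pair, as Tat did with 337 on replicate 1 and 6.8 on replicate 2. Of 56 such genes, 8 exceeded the floor of replicate 1 and 8 that of replicate 2. These counts were largely fixed by setting the floor on the same genes, and so say nothing about Tnfaip3. On replicate 1 Tnfaip3 lay below Tat, so its signal alone does not separate expression from background. Among the genes with kB matches shown above, Nfkb2 lay within 2-fold as deposited and Nfkbie was above the floor on replicate 2 alone.

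Ikbkb (chr8:22659205-22706589), which encodes the IKK beta subunit that phosphorylates the IkB proteins, was read by 4 probe sets with no common pattern. The brightest, 1426207_at, gave 563 on replicate 1 and 1347 on replicate 2, or 955 ± 555 (SD, n = 2), 2.39-fold higher on replicate 2. By contrast 1432275_at gave 273 and 83.8, 3.26-fold higher on replicate 1, with the replicate 2 signal at the floor. The probe set 1426333_a_at gave 220.4 and 54.4, above the floor on replicate 1 only, where it was 1.27 times the floor. In deposited signal it was at least 2.64-fold higher there, a minimum likewise not corrected for background. The last, 1454184_a_at, gave 8.7 and 18.2 and was below the floor on both arrays. It is annotated to the same sequence record as 1432275_at, so these share a target. Of 654 genes with 2 detected probe sets, 24, or 3.67%, likewise had them over 2-fold apart in opposite directions.

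Replicate 1 was over 2-fold higher for 3 of the 11 detected probe sets (Rel 1420710_at, Nfkbia 1420089_at and Ikbkb 1432275_at), against 15.3% of all those detected. Replicate 2 was over 2-fold higher for 2 (Nfkbia 1420088_at and Ikbkb 1426207_at), against 13.6% of all. The other 6 lay within 2-fold, and the median log2 difference of the 11 was 0.16. With each gene represented by its brightest probe set, Rel was over 2-fold higher on replicate 1, against 14.6% of all genes, and Nfkbia and Ikbkb on replicate 2, against 14.0%. The median over the 6 genes was -0.17, against 0.03 over 3687 genes, and its sign turned with the floor and the choice of probe sets. With so few members, these shares are descriptions.

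**Figure D3:**
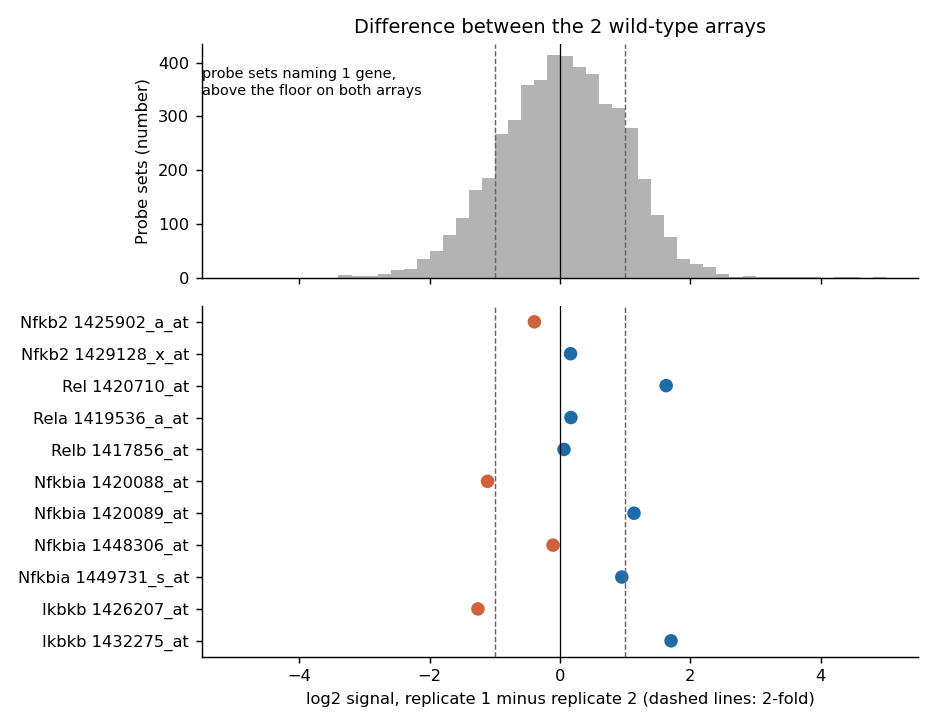
Top, histogram of the log2 difference, replicate 1 minus replicate 2, over the 4955 detected probe sets. Bottom, the same difference for the 11 such probe sets of the NF-kB genes, blue where higher on replicate 1 and orange where higher on replicate 2. Rel stands at 1.63, and the probe sets of Nfkbia and Ikbkb fall on both sides of 0.

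Other scalings of the arrays moved the differences. Centring shifts all of them by the same amount, whereas quantile normalization moved some up and some down. With each array centred on its median signal, the median over all genes was -0.60. Replicate 1 was then over 2-fold higher for 3.31% of detected probe sets, and replicate 2 for 33.5%. After quantile normalization that median was 0.12, with shares of 12.2% and 8.84%. Relative to these medians, Rel stayed higher on replicate 1, by 1.60 as deposited and 1.71 after quantile normalization. Centring leaves such a relative value at 1.60 by construction, because it shifts all differences alike. The raw differences of Rela, Relb and the Nfkb2 probe set 1429128_x_at changed sign with the scaling. They were 0.17, 0.06 and 0.16 as deposited, 0.69, -0.04 and -0.05 after quantile normalization, and -0.47, -0.57 and -0.47 after centring. The Nfkbia probe set 1448306_at likewise turned, with -0.11, 0.43 and -0.74. No direction is therefore given for them. The other Nfkb2 probe set, 1425902_a_at, gave -0.39, -0.58 and -1.03, and so passed 2-fold after centring only. Relative to the median over all genes it was -0.43 after centring. The unadjusted difference of Rel after centring, 0.995, was just under 2-fold. The brightest probe sets of Nfkbia and Ikbkb remained higher on replicate 2 under both scalings, with log2 differences of -0.76 and -0.73, under 2-fold, after quantile normalization and -1.75 and -1.89 after centring.

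**Figure D4:**
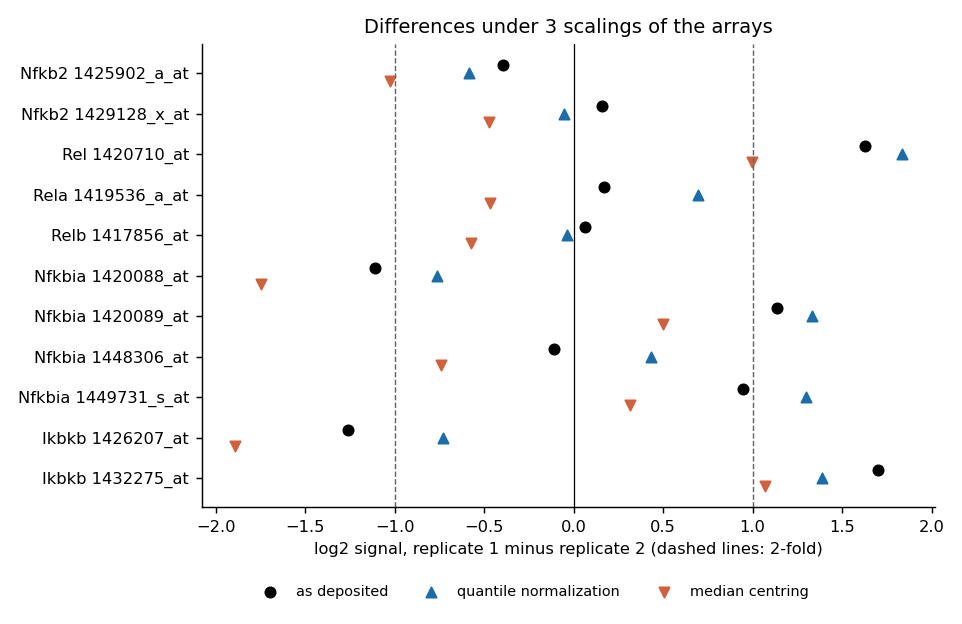
Log2 difference, replicate 1 minus replicate 2, of the 11 detected probe sets, as deposited (circles), after quantile normalization (upward triangles) and after median centring (downward triangles). Rel runs from 0.995 to 1.83, whereas Rela, Relb and 1 probe set each of Nfkb2 and Nfkbia cross 0.

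Other genes of the pathway were described from lists by role. Of 24 measured kinases and adaptors 13 were detected, against 30.2% of all genes. Among these, replicate 1 was over 2-fold higher for 1, against 14.6% of all genes, and replicate 2 for 5, against 14.0%. After quantile normalization these counts were 1 and 2, against 442 and 328 of 3713 genes. After centring they were 1 and 9, against 114 and 1261 of 3687. The median log2 difference of the list was -0.91, against 0.03 over all genes. It was -0.59 against 0.12 after quantile normalization, and -1.55 against -0.60 after centring. Prkcb, the protein kinase C that couples the B cell receptor to NF-kB, gave 1323 on replicate 1 and 3242 on replicate 2, 2.45-fold higher on replicate 2. Its second probe set, with 408 and 832, went the same way. Bcl10, an adaptor downstream of that kinase, was 2.10-fold higher on replicate 2 by 1 probe set. Its other detected one, with 474 and 612, lay within 2-fold. Cul1, the scaffold of the ligase that marks IkB for degradation, was 2.01-fold higher on replicate 2. For Sharpin, a subunit of the linear ubiquitin ligase, the difference was 2.48-fold, higher on replicate 2, by 1 probe set, but the other gave 569 and 599. Irak1, a kinase of Toll-like receptor signalling, was 3.83-fold higher on replicate 2 by 1 probe set and within 2-fold by its 2 others. Birc3 and Tab2, a ubiquitin ligase and an adaptor of the kinase TAK1, gave 1573 ± 130 and 943 ± 381 (SD, n = 2). Map3k14, which encodes NIK, the kinase of the alternative pathway, went the other way. It gave 391 on replicate 1 and 85.4 on replicate 2, a signal next to the floor.

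Of 17 measured other inhibitors and cofactors, 10 were detected, against 30.2% of all genes, and 9 of these lay within 2-fold. They included Tnip1, an A20 partner, at 591 ± 29.6, Pias1, a SUMO ligase, at 432 ± 24.9, Otulin, a linear deubiquitinase, at 419 ± 53.3 and Spop, a ligase adaptor, at 373 ± 69.9 (SD, n = 2). Commd1, which promotes the turnover of RelA, was 2.09-fold higher on replicate 1 as deposited. Genes over 2-fold higher on replicates 1 and 2 thus numbered 1 and 0, against 14.6% and 14.0% of all genes. After quantile normalization the counts were 0 and 0, against 442 and 328 of 3713 genes. After centring they were 0 and 1, against 114 and 1261 of 3687, so Commd1 passed 2-fold under neither scaling. The median log2 difference of the list was 0.13. It was 0.36 after quantile normalization and -0.50 after centring, where the medians over all genes were 0.12 and -0.60.

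Receptors that feed the pathway were detected in 9 of 19 cases, against 30.2% of all genes. Tnfrsf13c, the BAFF receptor, gave 1780 on replicate 1 and 3510 on replicate 2, and Cd79b, which encodes a B cell receptor chain, 2893 ± 334 (SD, n = 2). Cd79a, the other chain, was 15.3-fold higher on replicate 1. Tlr1 was 5.52-fold higher on replicate 2, and the TNF receptor genes Tnfrsf1b and Tnfrsf1a were 2.21-fold and 2.19-fold higher on replicate 1. Cd40, which drives both branches, was 2.58-fold higher on replicate 2 by the brighter of its probe sets, and its other went the opposite way. The median of the list was 0.16 as deposited, 0.50 after quantile normalization and -0.47 after centring. Replicate 1 was over 2-fold higher for 3 receptors and replicate 2 for 2, against 14.6% and 14.0% of all genes. The counts turned to 2 and 2 after quantile normalization, against 442 and 328 of 3713 genes. They turned to 1 and 3 after centring, against 114 and 1261 of 3687. Neither array is therefore named as the higher one for this list.

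Target genes outside the set were detected in 24 of 49 cases, against 30.2% of all genes. Of the 23 whose brightest probe set was detected, 17 lay within 2-fold, with a median log2 difference of 0.09, while replicate 1 was over 2-fold higher for 4 and replicate 2 for 2, against 14.6% and 14.0% of all genes. After quantile normalization the counts were 6 and 1, against 442 and 328 of 3713 genes. After centring they were 2 and 5, against 114 and 1261 of 3687, so the balance turned for all genes as well. The median of the targets was 0.34 and -0.54 under these scalings, against 0.12 and -0.60 over all genes. B2m, the light chain of MHC class I, gave 5691 ± 250, H2-K1, a class I heavy chain, 4557 ± 360, and Irf8, a B cell transcription factor, 2518 ± 688 (SD, n = 2). On replicate 1, Pim1, a survival kinase, was 4.31-fold higher, Irf4, which c-Rel induces, 3.65-fold, Ccnd1 2.65-fold and Cd74, the invariant chain, 2.12-fold. On replicate 2, Ccnd2, a D-type cyclin of B cells, was 4.07-fold higher and Slc2a1, a glucose transporter, 2.10-fold, both by their brightest probe sets and with another on the opposite side. The second probe set of Pim1, with 196 and 169, lay within 2-fold.

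**Figure D5:**
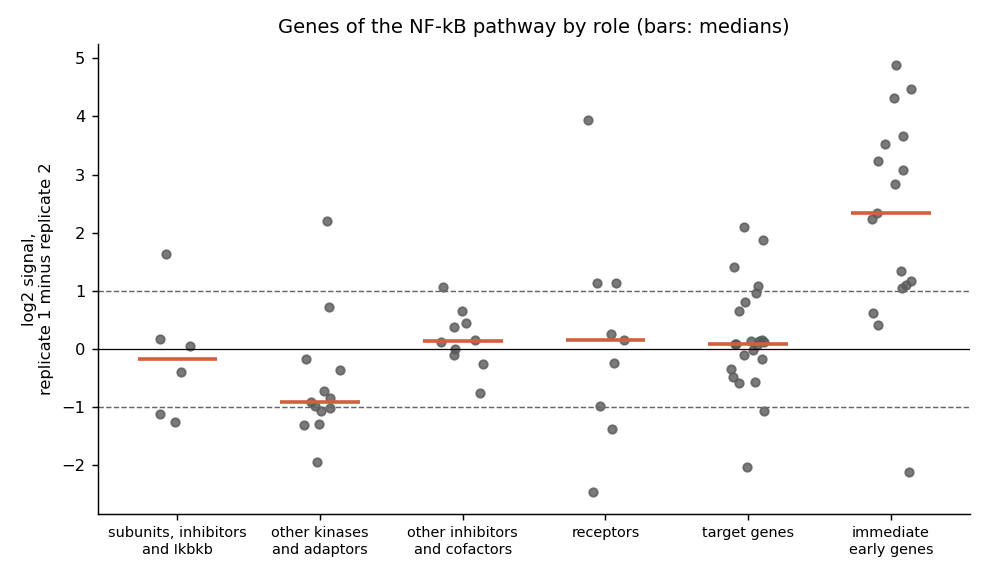
Log2 difference, replicate 1 minus replicate 2, of genes whose brightest probe set was detected, by role in the pathway (x axis), with immediate early genes beside them. Points are genes and orange bars medians, which stand at -0.91 for other kinases and adaptors and 2.35 for immediate early genes.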

How the data were processed

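Gene expression was measured on 2 arrays of wild-type IgM+IgD+ splenic B cells, from 6 µg of total RNA each per the labels' protocols. The deposited table holds linear signal intensities that the authors obtained with MAS5, per the submitters' processing notes, with version and parameters not given in the sources used here. MAS5 scales each array by 1 factor, and the mean after trimming both tails was 150.0 on replicate 1 and 150.1 on replicate 2. No detection calls were used. The number of arrays limits the precision.

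Of 22690 probe sets, 64 controls were left out, 691 named several genes and 1555 were unnamed here. Symbols came from the platform annotation, and none changed on lookup by Entrez identifier in RefSeq GRCm38.p6. The log2 signal of replicate 2 was subtracted from that of replicate 1 as deposited, and over 2-fold is the threshold used. The probe set with the greatest mean log2 signal stood for its gene. Genes named outside the set are the 4 brightest of each list and those over 2-fold apart, up to 6, both among genes above the floor on both arrays, the 3 brightest immediate early genes and the 2 brightest B cell genes. For the other cell types the rule was also the 2 brightest of each, but the detected markers are named instead, a change made after their values were seen. Cd3e, Pax5, Xist, Eif2s3y, Kdm5d, Uty, Prm1 and Tat were chosen after their values were seen. The members and lists were chosen with earlier results of these data known. The planned comparison of protein sequences was not made. Calculations used Python 3.11.15, numpy 2.4.6 and pandas 2.3.3, tested on simulated data. Alternatives covered the floor, scaling, pseudocount and choice of probe sets.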

Additional observations from a re-analysis of the deposited data

How the results depend on the processing

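Of 45 recomputed counts and medians, 41 stayed within 1.5 times the reported count or within 1 pooled SD of the reported median. The number of receptor genes above the floor on both arrays was 14 with the floor at the array median, against 9. Probe sets of the NF-kB genes over 2-fold higher on replicate 1 numbered 5 without a floor and 1 after median centring, against 3, and those higher on replicate 2 numbered 0 after quantile normalization, against 2. Without a floor, the added probe sets are those of Tnfaip3 and Ikbkb whose replicate 2 signals lay below it. For Nfkbia the log2 difference turned from -1.11 to 0.22 with the mean over its probe sets, whether all or those above the floor. For Ikbkb it turned from -1.26 to 0.35 with all probe sets and to 0.22 with those above the floor. The Tnfaip3 difference of 6.15, computed from a signal far below the floor, was 3.11 with log2(signal + 32). Judged on 1 array alone, by leaving out either replicate, 7 to 8 genes and 13 to 13 probe sets were above the floor. Differences need both arrays and were not recomputed without one. No paired analysis was possible because there was 1 group.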

Other observations

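Opposed probe sets were seen elsewhere in the pathway. Of 15 pathway genes outside the set with at least 2 detected probe sets, 6 had differences of both signs, and 1, Cd40, had probe sets over 2-fold apart in opposite directions. For Cd40, 1449473_s_at gave 357 on replicate 1 and 921 on replicate 2, and 1460415_a_at gave 273 and 111. Ccnd2 gave log2 differences, replicate 1 minus replicate 2, of -2.03, -0.88 and 0.57 by its 3 detected probe sets, and Slc2a1 gave -1.07, -0.28 and 0.62. Both probe sets of Prkcb, in contrast, were over 2-fold higher on replicate 2.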
